A study of Mus musculus with 6 samples.

Results

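The genes described here are 37 genes of the glutathione, thioredoxin and NRF2 antioxidant systems of the mouse, measured in the lens. The rule lists them by function and uses no measured value: NRF2 and its inhibitor KEAP1, enzymes of glutathione synthesis, peroxidases and dismutases, the thioredoxins and peroxiredoxins, glutathione transferases and methionine sulfoxide reductases. All 37 had at least 1 probe that could be named, of 20659 genes named on the array, and 36 were among the 12785 genes tested. Glrx, glutaredoxin, was not well above background on any array and was not tested. The levels of 33 of the members were well above background on all 6 arrays.

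The lens is transparent for life and keeps its proteins without turnover in its inner cells, and it is known for a high content of reduced glutathione. NRF2 is a transcription factor that KEAP1 holds for degradation in the cytoplasm. Oxidants and electrophiles release it, and it then binds antioxidant response elements with small MAF partners and raises genes for glutathione and thioredoxin metabolism. Peroxides are removed by glutathione peroxidases, catalase and peroxiredoxins, and the reduced thioredoxin and glutathione they use are restored by reductases fed by NADPH.

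The knock-in mice carried W151C, in which cysteine replaces tryptophan at codon 151 in βB2-crystallin, an abundant structural protein of the lens, made in the Crybb2 gene by CRISPR/Cas9. Knock-in lenses (3 arrays, labelled replicates 1, 2 and 4) were compared with wild type lenses (3 arrays, labelled replicates 1, 2 and 3), both at 3 months of age, on single-colour Agilent arrays. Strain, sex and zygosity, the number of founder lines, and whether an array held 1 animal or a pool are not given in the sources used here, so p-values reflect only how these arrays vary, which may be technical variation. The probes do not read the substitution itself, so no level here checks the genotype.

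Values are log2 signals relative to the 75th percentile of the same array, given for knock-in arrays 1, 2 and 4 and then for wild type arrays 1, 2 and 3, and levels of different probes are not compared. That percentile was 167 to 201 in knock-in lenses, and among the wild type arrays 698 for replicate 3 against 142 and 120 for the others. The file headers give a scan time, and arrays with the same scan time were taken to share a slide. By that rule slide 1 carried the knock-in lenses and slide 2 the wild type replicates 1 and 2. Slide 3 carried the wild type replicate 3, scanned on another day. Because no slide inferred this way carried knock-in and wild type lenses together, the effects of slide and genotype cannot be told apart. Values with the scan day as a block, in which wild type replicates 1 and 2 are the comparison, are called shared-day values. A gene passed the test at a limma adjusted p under 0.05, adjusted over all genes tested, and a log2 difference of 1 is 2-fold. In whole lenses, fewer cells of a type and less RNA per cell cannot be told apart.

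Promoters of the 4 members that were higher in the knock-in lenses are printed first, because antioxidant response elements are the sites through which NRF2 acts. They are RefSeq sequences of build GRCm38.p6, from 250 bases before to 50 bases after the gene's start, and 30 of the 37 members had such an entry. Capitals mark matches on either strand to TGACNNNGC, TGANNNNGCA or TGAGNNNGC, forms of the element's core, and matches of different motifs can overlap.
Srxn1, chr2:152105274-152105573, plus strand: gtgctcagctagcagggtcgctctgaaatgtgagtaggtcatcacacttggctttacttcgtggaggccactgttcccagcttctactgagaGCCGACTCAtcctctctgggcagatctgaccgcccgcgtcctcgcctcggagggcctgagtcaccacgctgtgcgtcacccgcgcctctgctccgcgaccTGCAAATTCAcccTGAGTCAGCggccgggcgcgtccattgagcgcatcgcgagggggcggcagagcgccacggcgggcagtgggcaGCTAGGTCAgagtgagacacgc
Gstp1, chr19:4037863-4038162, minus strand: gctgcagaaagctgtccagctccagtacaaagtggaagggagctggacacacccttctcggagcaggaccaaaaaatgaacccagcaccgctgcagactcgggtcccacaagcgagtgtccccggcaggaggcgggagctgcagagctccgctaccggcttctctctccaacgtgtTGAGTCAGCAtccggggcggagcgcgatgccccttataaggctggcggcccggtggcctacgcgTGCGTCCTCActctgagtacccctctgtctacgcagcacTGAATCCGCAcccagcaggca
Txn1, chr4:57956362-57956661, minus strand: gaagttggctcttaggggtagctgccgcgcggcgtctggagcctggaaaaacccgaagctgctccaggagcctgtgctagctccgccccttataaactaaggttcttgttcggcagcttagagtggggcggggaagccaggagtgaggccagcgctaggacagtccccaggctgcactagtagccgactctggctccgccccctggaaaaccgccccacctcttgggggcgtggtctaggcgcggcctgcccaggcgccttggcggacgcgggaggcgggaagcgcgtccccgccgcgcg
Gsto1, chr19:47854723-47855022, plus strand: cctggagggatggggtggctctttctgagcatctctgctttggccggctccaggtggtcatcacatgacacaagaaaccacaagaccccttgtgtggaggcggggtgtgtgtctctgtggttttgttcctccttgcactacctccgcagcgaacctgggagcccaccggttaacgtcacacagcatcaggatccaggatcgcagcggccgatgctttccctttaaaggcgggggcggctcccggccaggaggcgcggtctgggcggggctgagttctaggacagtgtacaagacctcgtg
The Srxn1 window held 4 matches, among them TGAGTCAGC at bases -45 to -37 from the start. The Gstp1 window held 5, overlapping in part, among them TGAGTCAGCA at bases -74 to -65. The windows of Txn1 and Gsto1 held none.

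Short windows show the same letters in members of the thioredoxin and cystine transport systems that did not pass the test, with 10 bases on each side of the match.
Prdx1, chr4:116685349-116685648, plus strand: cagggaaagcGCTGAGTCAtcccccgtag
Txnrd1, chr10:82858956-82859255, plus strand: actggattttTGCTTTGTCAttctgacacg
Slc7a11, chr3:50443564-50443863, minus strand: ctggagaattTGCATCATCAtgcagcccag
The coordinates are those of the whole promoter window. Some genes had more than 1 window, and such a gene counted as holding a match if any of its windows did. The other windows of Txnrd1 held none. TGACNNNGC was found in 9 of the 30 members and in 14.0% of the 27025 genes with a promoter, and TGANNNNGCA in 7 members and 14.7% of genes. At least 1 of these 2 motifs was in 12 members, or 40%, and in 24.2% of genes. TGAGNNNGC was added after those matches, and the TGAGTCAGC in the Srxn1 window, had been seen. It was in 6 members, or 20%, and in 19.8% of genes. With all 3 motifs the count was 13 members, or 43.3%, and 35.5% of genes. Among members called, Srxn1 and Gstp1 held a match, and Txn1, Gsto1 and Txnip did not. The other called members, Hmox1, Prdx6 and Msra, had no promoter entry. Of the 24 tested members that were not called and had an entry, 11 held a match to any of the 3 motifs. A match describes letters in this window and says nothing of binding.

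In the knock-in lenses 4 members rose and 4 fell, and the other 28 tested did not pass. The risers were Srxn1, Txn1, Gsto1 and Gstp1, and the members that fell were Prdx6, Hmox1, Msra and Txnip. The 8 called are 22.2% of the 36 tested, against 25.9% of all genes, of which 13.3% were higher and 12.6% lower. The share of members called was near that of genes in general. After quantile normalization 7 members were higher and 4 lower, and after median scaling 5 and 3. The median difference of the members was 0.13, with a range of -1.53 to 2.39, against -0.04 for all genes tested, and 20 of the 36 had a positive difference. The groups did not overlap in 20 members of 36, against 45.9% of all genes. Of the 28 members not called, 18 had a 95% interval of the difference within 2-fold in either direction.

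**Figure D1:**
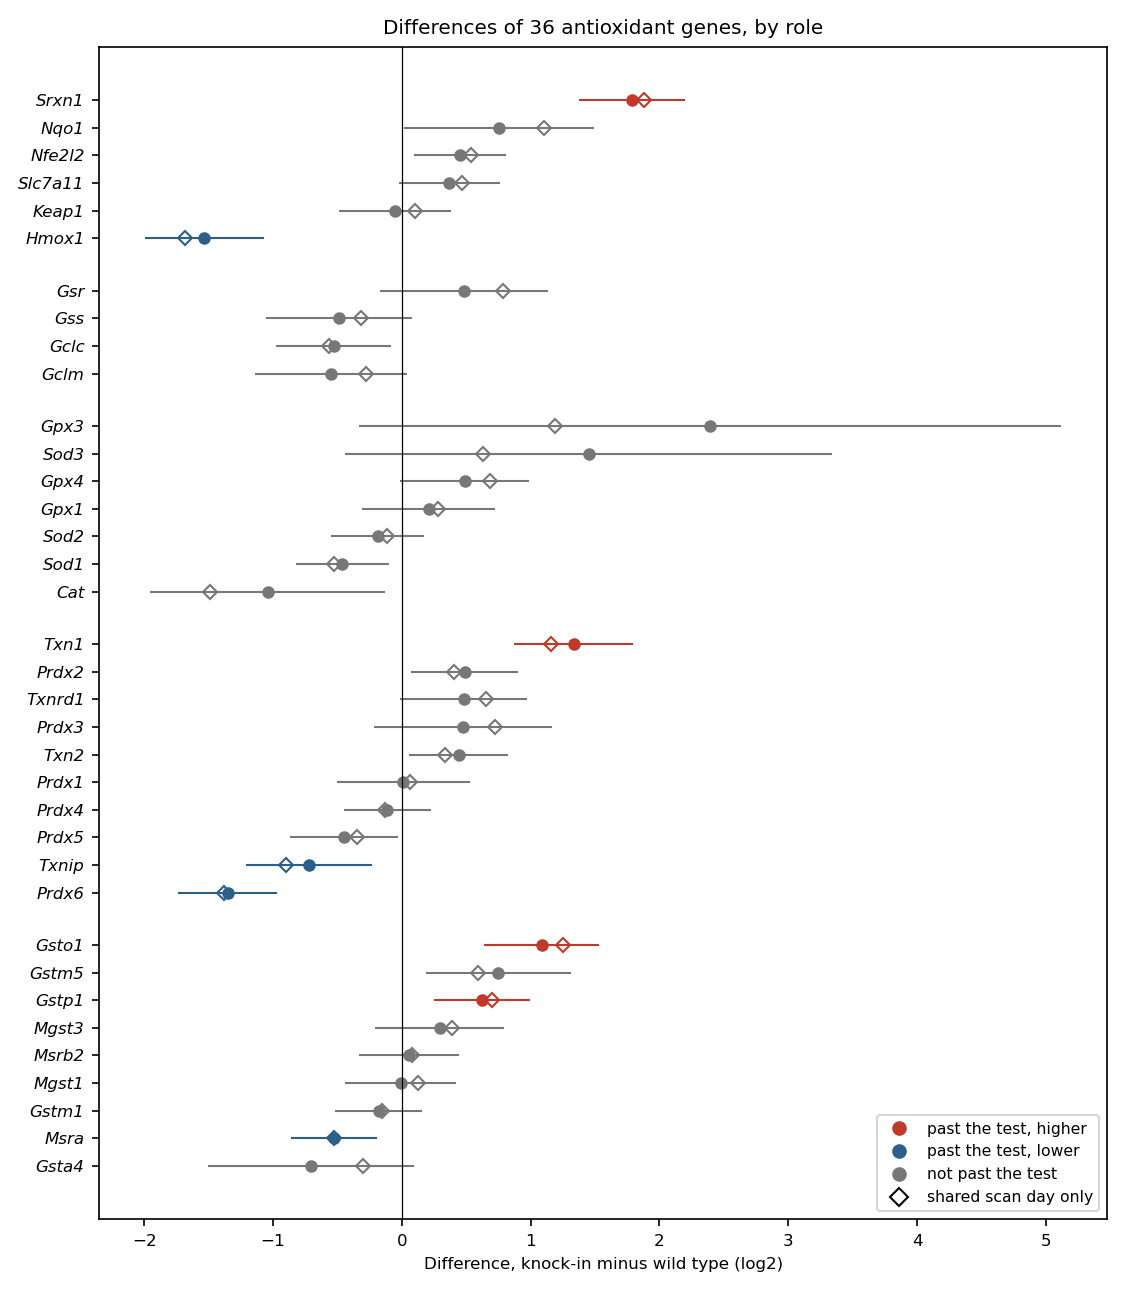
Difference of each of the 36 tested genes, knock-in minus wild type, on the log2 scale, in blocks for NRF2 and its targets, glutathione synthesis, peroxidases with dismutases, the thioredoxin system, and transferases with sulfoxide reductases. Filled circles with lines are the difference and its 95% interval over all 6 arrays, open diamonds the shared-day value, red and blue mark genes past the test, and Srxn1 and Hmox1 lie at opposite ends of the first block.

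Only 5 of the 8 changed by 2-fold or more, namely Srxn1, Txn1, Gsto1, Hmox1 and Prdx6. Their calls held when each array was left out in turn, while those of Gstp1, Msra and Txnip were lost in 4, 5 and 5 of the 6 fits. Msra and Txnip kept their calls only without wild type array 3, with adjusted p up to 0.137 and 0.159 in the other fits. Gstp1 lost its call without knock-in array 1 or 2 or wild type array 1 or 2, with adjusted p up to 0.127. On the shared day 16 members were called, 10 higher and 6 lower, including all 8 of the main test, against 43.5% of all genes. With slide as a random block 4 remained called, Srxn1, Hmox1, Txn1 and Prdx6, against 4.85% of all genes. The 8 members that gained a call on the shared day had adjusted p between 0.386 and 0.63 in the slide fit. Without knock-in array 4, on which retinal photoreceptor markers were high, 7 members were called, against 18.6% of all genes. Without wild type array 3 the count was 16, against 43.3% of all genes. That array was alone on its scan day. The shared-day fit and the fit without it therefore compare the same arrays and are not separate checks.

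Among NRF2, its inhibitor and its target enzymes, 1 of 6 rose, 1 fell and 4 did not pass. The 2 called were 33.3%, against 25.9% of all genes. Srxn1, sulfiredoxin, which repairs overoxidised peroxiredoxins, had log2 levels of 2.25, 2.52 and 2.60 on the knock-in arrays, against 0.56, 0.58 and 0.85 on the wild type arrays. All knock-in arrays lay above all wild type arrays, with little spread in either group. The difference was 1.79 (SE 0.17, adjusted p = 0.000804), a 3.46-fold rise that ranged in adjusted p between 0.000677 and 0.00824 when single arrays were left out. It was the largest difference among the members called.

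Hmox1, haem oxygenase 1, which breaks down haem and is a textbook NRF2 target, moved the other way. Its log2 levels were 3.05, 2.74 and 3.01 in knock-in lenses, against 4.68, 4.56 and 4.17 in wild type lenses. Every wild type array was above every knock-in array, wild type array 3 being the nearest. The difference was -1.53 (SE 0.19, adjusted p = 0.00229), a 2.90-fold fall, and the second probe for Hmox1 gave -1.33. Hmox1 is also induced by haem and held down by the repressor BACH1, so it is not a readout of NRF2 alone. Bach1 differed by 0.43 (adjusted p = 0.153) and was not called. The part of these regulators in the Hmox1 fall was not tested.

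Nqo1, a quinone reductase and another textbook NRF2 target, did not pass. It had -0.90, -1.27 and -1.26 in knock-in lenses, against -2.22, -2.27 and -1.19 in wild type lenses. Wild type array 3 lay among the knock-in arrays, and the other wild type arrays lay about 1 unit lower. The difference was 0.75 (SE 0.31, 95% interval 0.02 to 1.49, adjusted p = 0.12), and on the shared day it was 1.10 (adjusted p = 0.00359).

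Nfe2l2, the gene of NRF2, had 1.88, 1.94 and 1.91 in knock-in lenses, against 1.37, 1.37 and 1.62 in wild type lenses. The groups did not overlap, yet the difference of 0.45 (SE 0.15, adjusted p = 0.0668) missed the threshold, and the shared-day value was 0.54 (adjusted p = 0.0141). Fitted with a random slide block, Nfe2l2 had an adjusted p of 0.387. NRF2 is controlled mainly through the stability of its protein, which the arrays do not measure. Keap1 had 0.63, 0.62 and 0.50 in knock-in lenses, against 0.55, 0.41 and 0.94 in wild type lenses, and its interval of -0.49 to 0.38 held 0 (adjusted p = 0.853). Slc7a11, the cystine importer that feeds glutathione synthesis, had 0.02, 0.15 and -0.03 in knock-in lenses, against -0.32, -0.52 and -0.13 in wild type lenses. Its groups did not overlap, but the difference of 0.37 (adjusted p = 0.144) missed the threshold, and the shared-day value was 0.47 (adjusted p = 0.0371). Its adjusted p with a random slide block was 0.55.

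**Figure D2:**
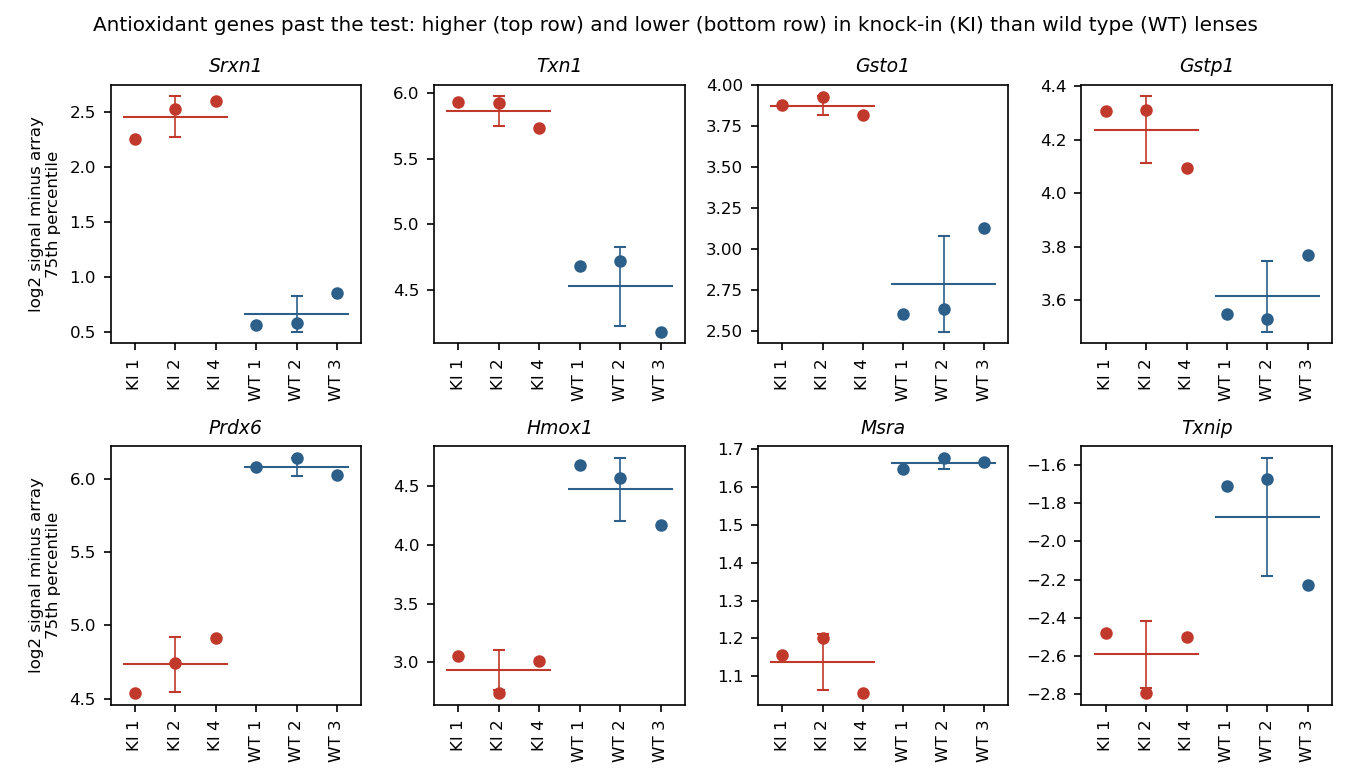
Log2 signal relative to the 75th percentile of the array for the 8 members past the test, 1 point per array, knock-in (KI, red) left of wild type (WT, blue). Horizontal lines are group means and bars are SD over 3 arrays, and each panel has its own scale. The groups do not overlap in any of the 8 panels, which were chosen by the test on these same arrays. Among all genes tested, 45.9% had groups that did not overlap.

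No gene of glutathione synthesis and reduction passed the test, against 25.9% of all genes, and the median of the 4 tested was -0.51. Gclc, the catalytic subunit of glutamate-cysteine ligase, the rate-limiting enzyme, had 2.59, 2.90 and 3.18 in knock-in lenses, against 3.46, 3.46 and 3.34 in wild type lenses. The groups did not overlap, knock-in array 4 lying closest to wild type, and the difference was -0.53 (SE 0.19, adjusted p = 0.0822). Its modifier subunit Gclm, also an NRF2 target, had 1.90, 1.80 and 1.77 in knock-in lenses, against 2.18, 2.02 and 2.92 in wild type lenses. Wild type array 3 stood above the rest, and the difference of -0.55 (adjusted p = 0.15) became -0.28 on the shared day. Gss, glutathione synthetase, had a difference of -0.48 (adjusted p = 0.178), with overlapping groups.

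Gsr, glutathione reductase, had 1.10, 1.22 and 0.95 in knock-in lenses, against 0.35, 0.26 and 1.22 in wild type lenses. Only wild type array 3 reached the knock-in levels, so the difference of 0.48 (adjusted p = 0.237) was 0.79 on the shared day (adjusted p = 0.00658). A second Gsr probe gave 0.98.

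Among glutathione peroxidases, catalase and superoxide dismutases, none of 7 passed, against 25.9% of all genes, and the median of the 7 was 0.21. Cat, catalase, had 2.35, 1.81 and 1.98 in knock-in lenses, against 3.52, 3.56 and 2.18 in wild type lenses. Wild type array 3 fell between knock-in arrays 1 and 4, far from its own group. The difference was -1.04 (SE 0.39, adjusted p = 0.0906), and -1.49 on the shared day (adjusted p = 0.00211). Sod1, the cytosolic dismutase, had 6.05, 5.87 and 5.90 in knock-in lenses, against 6.44, 6.51 and 6.27 in wild type lenses. It was lower on every knock-in array, at -0.46 (SE 0.15, adjusted p = 0.0654), and at -0.53 on the shared day (adjusted p = 0.0201).

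Sod2, the mitochondrial dismutase, differed by -0.19 (adjusted p = 0.398), with an interval of -0.55 to 0.17. Gpx1, the cytosolic glutathione peroxidase, differed by 0.21 (95% interval -0.31 to 0.72, adjusted p = 0.517). Gpx4, which reduces lipid peroxides in membranes, had 4.16, 4.07 and 3.89 in knock-in lenses, against 3.30, 3.41 and 3.94 in wild type lenses. Here too wild type array 3 lay with the knock-in arrays, and the difference was 0.49 (adjusted p = 0.133), with 0.68 on the shared day (adjusted p = 0.0108). Fitted with a random slide block, Gpx4 had an adjusted p of 0.512.

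Gpx3 and Sod3, a secreted peroxidase and an extracellular dismutase, had the widest intervals of the members. Gpx3 had 1.54, -0.32 and -1.51 in knock-in lenses, against -1.78, -0.79 and -4.90 in wild type lenses, the last not well above background. Sod3 had 0.87, -0.99 and -0.91 in knock-in lenses, against -1.36, -0.58 and -3.44 in wild type lenses. In both genes knock-in array 1 was highest and wild type array 3 lowest, and the groups overlapped. The differences were 2.39 (SE 1.16, adjusted p = 0.17) for Gpx3 and 1.45 (SE 0.80, adjusted p = 0.222) for Sod3.

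Leukocyte and fibroblast markers were set beside them after their values were seen. Of 7 tested leukocyte markers 4, Tyrobp, Csf1r, C1qa and C1qc, were likewise highest on knock-in array 1 and lowest on wild type array 3, as were 2 of 3 tested fibroblast markers, Col1a2 and Fbln1. Csf1r, a macrophage receptor, had 1.11, 0.15 and 0.08 in knock-in lenses, against -0.03, 0.31 and -1.29 in wild type lenses. Fbln1, a matrix gene, had 1.73, -0.37 and -0.96 in knock-in lenses, against -0.65, 0.01 and -2.60 in wild type lenses.

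The other leukocyte markers, Itgam, Adgre1 and C1qb, did not share this order and were higher on wild type arrays 1 and 2 than on any knock-in array. Itgam, an integrin subunit of myeloid cells, had 3.33, 2.60 and 2.97 in knock-in lenses, against 5.12, 5.21 and 3.51 in wild type lenses, a difference of -1.65 (adjusted p = 0.0404). Adgre1 differed by -0.39 and C1qb by -0.86, neither called. Col1a1, the remaining fibroblast marker, was highest on knock-in array 2. The part of these cells in the Gpx3 and Sod3 values was not tested.

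**Figure D3:**
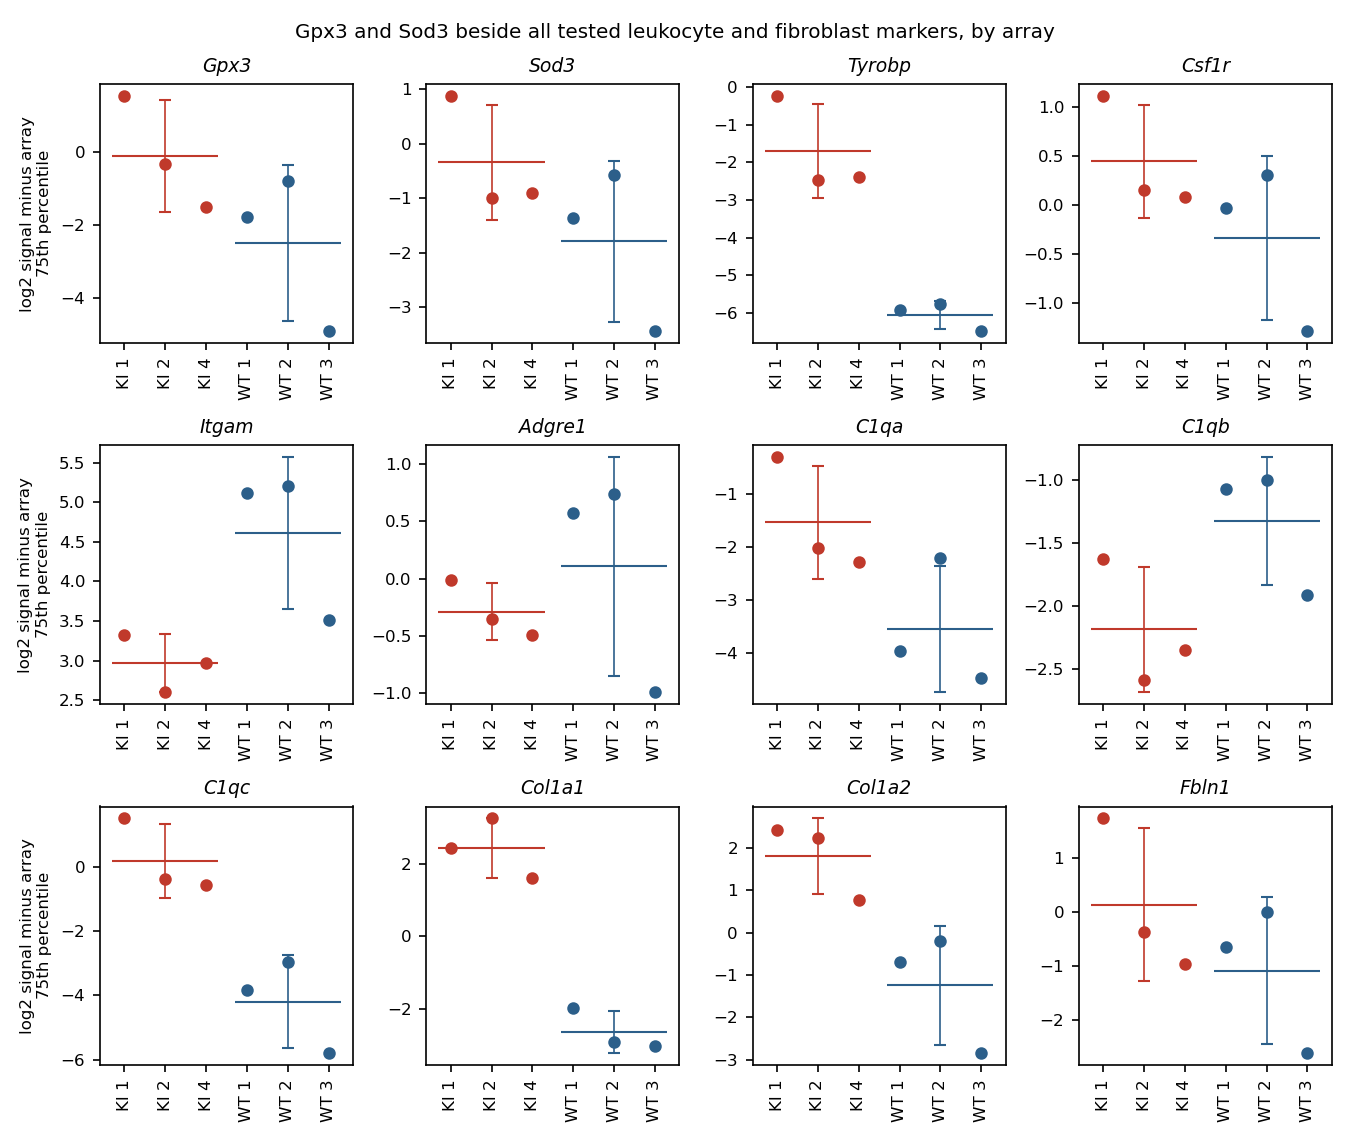
Log2 signal relative to the 75th percentile of the array for Gpx3, Sod3 and all 7 tested leukocyte (Tyrobp to C1qc) and 3 tested fibroblast markers, 1 point per array with group mean and SD, knock-in (KI, red) left of wild type (WT, blue). Gpx3, Sod3, 4 leukocyte and 2 fibroblast markers are highest on knock-in array 1 and lowest on wild type array 3, whereas Itgam, Adgre1 and C1qb are highest on wild type array 2.

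In the thioredoxin system 1 of 10 rose and 2 fell (30% called, against 25.9% of all genes). Txn1, cytosolic thioredoxin, the main protein disulfide reductant, had 5.93, 5.92 and 5.73 in knock-in lenses, against 4.68, 4.72 and 4.18 in wild type lenses. The groups were separated by about 1 log2 unit, and the difference was 1.33 (SE 0.20, adjusted p = 0.00407), a 2.52-fold rise. Txn2, its mitochondrial counterpart, had 4.81, 4.84 and 4.69 in knock-in lenses, against 4.43, 4.46 and 4.13 in wild type lenses. Its groups did not overlap either, but the difference of 0.44 (SE 0.16, adjusted p = 0.088) was not called.

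Txnrd1, the cytosolic thioredoxin reductase, differed by 0.48 (adjusted p = 0.133), and by 0.66 on the shared day (adjusted p = 0.0165). Its adjusted p with a random slide block was 0.523. Txnip, which binds thioredoxin and inhibits it, had -2.48, -2.79 and -2.50 in knock-in lenses, against -1.71, -1.67 and -2.23 in wild type lenses. Of the knock-in arrays 2 were well above background for it. The fall of 0.72 on the log2 scale (SE 0.21, adjusted p = 0.0423) had an adjusted p of 0.3 in the fit with a random slide block. The second Txnip probe gave -1.20.

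The peroxiredoxins did not move together. Prdx6, a peroxiredoxin with a single active cysteine that uses glutathione, had 4.54, 4.74 and 4.92 in knock-in lenses, against 6.08, 6.15 and 6.03 in wild type lenses. Every knock-in array was lower by more than 1 log2 unit, with a difference of -1.35 (SE 0.16, adjusted p = 0.0018), a 2.55-fold fall. Its other kept probes gave -1.81 and -0.97, and a further probe was not well above background.

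Prdx2, a cytosolic peroxiredoxin of the thioredoxin-dependent kind, had 4.19, 3.91 and 3.81 in knock-in lenses, against 3.60, 3.54 and 3.31 in wild type lenses. The groups did not overlap and the difference was 0.49 (SE 0.18, adjusted p = 0.0822). Prdx5 had the opposite sign, at 3.49, 3.25 and 3.11 in knock-in lenses, against 3.66, 3.60 and 3.94 in wild type lenses, a difference of -0.45 (adjusted p = 0.108). Prdx1, cytosolic, differed by 0.01 (95% interval -0.50 to 0.53), Prdx4, of the endoplasmic reticulum, by -0.11 (-0.45 to 0.22), and Prdx3, mitochondrial, by 0.47 (-0.22 to 1.16), and none was called.

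Of the glutathione transferases and methionine sulfoxide reductases, 2 of 9 rose and 1 fell (33.3% called, against 25.9% of all genes). Gsto1, an omega-class transferase that reduces dehydroascorbate, had 3.88, 3.93 and 3.82 in knock-in lenses, against 2.61, 2.64 and 3.13 in wild type lenses. The groups were clear of each other, wild type array 3 being nearest, with a difference of 1.09 (SE 0.19, adjusted p = 0.00754), a 2.12-fold rise. Its adjusted p was 0.0907 when slide was fitted as a random block. Gstp1, a pi-class transferase, had 4.31, 4.31 and 4.09 in knock-in lenses, against 3.55, 3.53 and 3.77 in wild type lenses. Its difference was 0.62 (SE 0.16, adjusted p = 0.0289), and its adjusted p was 0.262 with the random slide block. Gstp2 is a near-identical neighbour, so the probe may read both, and the second Gstp1 probe gave 1.45.

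Msra, which repairs oxidised methionine, had 1.16, 1.20 and 1.06 in knock-in lenses, against 1.65, 1.68 and 1.67 in wild type lenses. The wild type arrays were almost identical and all were higher, with a difference of -0.53 (SE 0.14, adjusted p = 0.0343; 0.28 with a random slide block). Msrb2, a mitochondrial sulfoxide reductase, differed by 0.05 (adjusted p = 0.834). Gstm5, a mu-class transferase, had 4.07, 3.78 and 3.38 in knock-in lenses, against 3.18, 3.13 and 2.67 in wild type lenses. Its groups did not overlap, and the difference of 0.75 (SE 0.24, adjusted p = 0.058) passed, among the fits that left out 1 array, only without knock-in array 4 (adjusted p = 0.0438).

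Gsta4, an alpha-class transferase that conjugates the lipid aldehyde 4-hydroxynonenal, differed by -0.71 (SE 0.34, adjusted p = 0.17), its wild type array 3 standing alone at -0.39. Gstm1 differed by -0.18 (adjusted p = 0.396), and the microsomal transferases Mgst1 and Mgst3 by -0.01 and 0.29 (adjusted p = 0.974 and 0.343). A total of 10 members had more than 1 kept probe, and in 8 of them the probes had the same sign. The exceptions were Gstm1, whose other probe gave 0.15, and Mgst3, whose other probe gave -0.75 and was well above background on only 3 arrays.

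**Figure D4:**
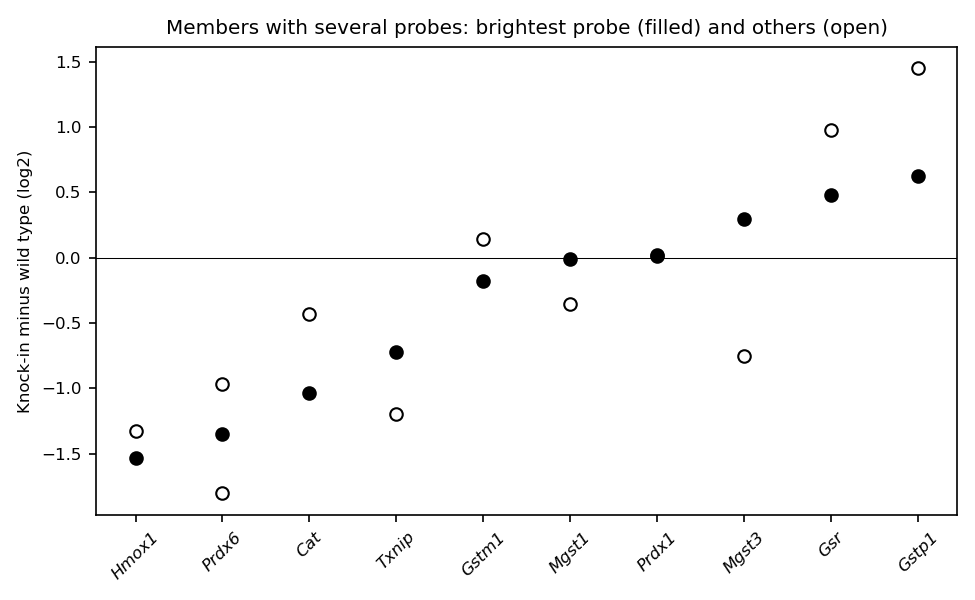
Log2 difference, knock-in minus wild type, of every kept probe of the 10 members with more than 1. Filled points are the brightest probe, which represents the gene, and open points the others; Hmox1, Prdx6, Cat and Txnip lie below 0 with all probes, Gsr and Gstp1 above 0 with all probes, and Gstm1 and Mgst3 on both sides.

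In most members wild type array 3 stood apart from the other wild type arrays. The wild type SD exceeded the knock-in SD in 24 of the 36 members, and wild type array 3 was the highest wild type array in 21 and the lowest in 13. The median distance between wild type arrays 1 and 2 was 0.06, that of wild type array 3 from their mean 0.36, and the median range over the knock-in arrays 0.31. All these are log2 levels of the same probe on different arrays.

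Other genes of these systems were taken from lists of 154 genes, of which 125 were tested. In all 28 rose and 10 fell, or 30.4%, against 25.9% of all genes called. Of 31 other NRF2 partners and targets 10 rose and 1 fell (35.5% called, against 13.3% higher and 12.6% lower among all genes), with a median difference of 0.24. With slide as a random block 3 genes of this list were called, and 6 of the 11 calls held when each array was left out in turn. This list too was chosen with earlier results of these data known. Ptgr1, prostaglandin reductase 1, had 0.86, 0.63 and 0.46 in knock-in lenses, against -1.46, -1.71 and -1.44 in wild type lenses, a difference of 2.19 (SE 0.17, adjusted p = 0.000398). Sqstm1, the autophagy receptor p62 that binds KEAP1, had 3.20, 2.97 and 2.85 in knock-in lenses, against 0.92, 0.85 and 1.38 in wild type lenses, a difference of 1.96 (adjusted p = 0.000958).

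Osgin1, a growth inhibitor induced by oxidative stress, rose by 1.77 (adjusted p = 0.000656), and Blvrb, biliverdin reductase B, by 1.25 (adjusted p = 0.00289, and 0.0545 with a random slide block). The groups did not overlap in any of these 4, which were chosen by the smallest p on these same arrays. Among all genes tested, 45.9% had groups that did not overlap. Pir, pirin, an iron-binding nuclear protein, was the 1 member of its list that fell, by 0.86 on the log2 scale (adjusted p = 0.0121; 0.169 with a random slide block).

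**Figure D5:**
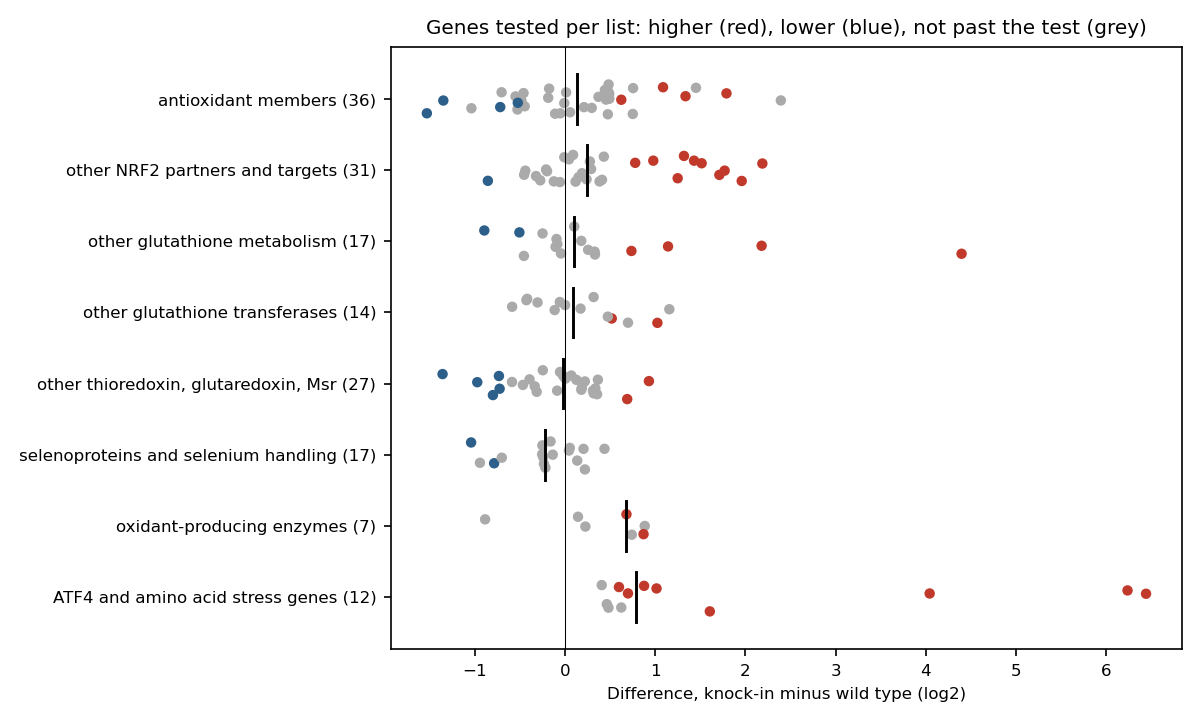
Log2 difference, knock-in minus wild type, of each tested gene of the antioxidant genes and of the other lists, 1 point per gene, with the number tested in brackets and a black bar at the median. Red points rose, blue points fell and grey points did not pass; the median is 0.13 for the antioxidant genes, 0.24 for other NRF2 partners and targets and 0.79 for ATF4 and amino acid stress genes.

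In other glutathione metabolism 4 of 17 rose and 2 fell (35.3% called, against 25.9% of all genes), with a median of 0.10. Chac1, which degrades glutathione in the cytosol and is a target of the stress factors ATF4 and CHOP, had 3.03, 2.88 and 2.85 in knock-in lenses, against -1.02, -1.45 and -1.97 in wild type lenses. Every knock-in array was above every wild type array by about 4 log2 units, with a difference of 4.40 (SE 0.25, adjusted p = 0.000144), a 21.1-fold rise. Gpx7, a peroxidase of the endoplasmic reticulum, rose by 2.18 (adjusted p = 0.00709; 0.0569 with a random slide block). Gpx8, also of the endoplasmic reticulum, rose by 0.73 (adjusted p = 0.0412), and Cth, which makes cysteine from cystathionine, by 1.14 (adjusted p = 0.0253). Ggct, gamma-glutamylcyclotransferase, fell by 0.90 (adjusted p = 0.0338), and Idh2, a mitochondrial source of NADPH, by 0.51 (adjusted p = 0.0415), both on the log2 scale. Fitted with slide as a random block, the adjusted p of Gpx8, Cth, Ggct and Idh2 was 0.341, 0.23, 0.239 and 0.315.

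Of 12 genes of the ATF4 response and stress-induced amino acid metabolism, 8 rose and none fell, with a median of 0.79. The 8 were 66.7% of the list, against 25.9% of all genes called. With slide as a random block 3 genes of the list were called. The list was chosen with the large rises of some of its genes known, so its count is a description. Asns, asparagine synthetase, had 4.91, 4.81 and 4.28 in knock-in lenses, against -1.02, -1.24 and -2.46 in wild type lenses, a difference of 6.24 (SE 0.39, adjusted p = 0.000197). Trib3, a pseudokinase induced by ATF4, differed by 6.44 (adjusted p = 5.24e-05), Slc7a3, a cationic amino acid transporter, by 4.04 (adjusted p = 5.24e-05), and Ddit3, the gene of CHOP, by 1.60 (adjusted p = 0.00409; 0.0771 with a random slide block). Of the wild type arrays only 2 were well above background for Trib3, so the size of its difference is uncertain. Slc7a11, a known ATF4 target as well as an NRF2 target, stood at 0.37 over the 6 arrays.

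Of 14 other glutathione transferases 2 rose, Gsta3 by 1.02 (adjusted p = 0.0487) and Gstp2 by 0.52 (adjusted p = 0.0423). Of 27 other thioredoxin, glutaredoxin and sulfoxide reductase genes 2 rose and 5 fell, Glrx5, a mitochondrial glutaredoxin of iron-sulfur cluster assembly, among the rises (0.93, adjusted p = 0.0073) and Txndc15, a thioredoxin-domain protein, among the falls (-1.36, adjusted p = 0.00248). Txndc16 differed by 0.69, Sesn1, a sestrin, by -0.73, Nxn, nucleoredoxin, by -0.73 and Txnl4b by -0.80 (adjusted p = 0.0265, 0.0171, 0.0221 and 0.0283). Of 17 selenoprotein genes none rose and 2 fell, Selenow by 1.04 (adjusted p = 0.00625) and Selenoo by 0.79 (adjusted p = 0.0359), on the log2 scale. Of 7 oxidant-producing enzymes 2 rose, Maoa, monoamine oxidase A, by 0.87 (adjusted p = 0.0178) and Noxo1, an organiser of NADPH oxidase, by 0.68 (adjusted p = 0.0483). In the order given, the shares called in these lists were 14.3%, 25.9%, 11.8% and 28.6%, against 25.9% of all genes. Of these 12 transferase, thioredoxin, selenoprotein and oxidase genes Txndc15 alone kept its call in the random slide fit (adjusted p = 0.0359), and the others had adjusted p between 0.0825 and 0.329 there.

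Marker levels of several cell types differed between the groups. The counts below stand beside 13.3% higher and 12.6% lower among all genes tested. Lens fibre markers, of which 11 were tested, had 7 lower and none higher, and their summed linear level, relative to the 75th percentile, was 702, 705 and 683 in knock-in lenses, against 2290, 2586 and 1015 in wild type lenses. Lens epithelial markers summed to 76.1, 85.8 and 81.3 in knock-in lenses, against 65.8, 65.2 and 69.1 in wild type lenses, with 1 of 9 higher and 1 lower and a median difference of -0.38. Pdpn, the marker that rose, carried that order, and without it the sums were 31.8, 42.7 and 43.9 in knock-in lenses, against 51.3, 51.4 and 55.0 in wild type lenses. Retinal photoreceptor markers summed to 8.41, 11.3 and 123 in knock-in lenses, against 4.55, 4.45 and 4.99 in wild type lenses, so knock-in array 4 stood apart.

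Leukocyte markers summed to 18.7, 9.64 and 11.1 in knock-in lenses, against 38.1, 40.9 and 12.7 in wild type lenses (2 of 7 higher, 1 lower, Lyz2 and Laptm5 not well above background on any array). Itgam made up most of these sums, and without it they were 8.71, 3.57 and 3.29 in knock-in lenses, against 3.24, 3.97 and 1.34 in wild type lenses, while the list's median difference was 0.79. Fibroblast markers summed to 14.6, 15.2 and 6.66 in knock-in lenses, against 1.75, 2.21 and 0.533 in wild type lenses, with 2 of 3 tested higher and Lum not well above background on any array. Erythrocyte markers summed to 1.64 to 3.39 in knock-in lenses, against 1.19 to 2.47 in wild type lenses, with 1 of 4 tested higher. Pigment cell markers summed to 2.48 to 2.56 in knock-in lenses, against 4.34 to 5.26 in wild type lenses, with none of 5 higher and 1, Oca2, lower, and a median difference of 0.16. Without Oca2 these sums were 1.13 to 1.66 in knock-in lenses, against 0.553 to 1.34 in wild type lenses. Endothelial markers summed to 1.32 to 1.64 in knock-in lenses, against 1.30 to 2.76 in wild type lenses. The part of these cell types in the differences of the antioxidant genes was not tested.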

How the data were processed

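Cy3-labelled lens RNA was measured on Agilent arrays of a single colour, per the labels. Deposited files hold spot intensities from the scanner, with background subtracted within the array by Agilent's Feature Extraction, version 11.0.1.1 in the file headers; the submitters' processing notes name version 9.1. The deposited flags (other) mark spots well above background and outliers, per the file headers. The probe design refers to mm9.

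The log2 of the processed signal minus the 75th percentile of each array over 43020 non-control spots was used. Outlier spots were left out, spots of a probe averaged, and a probe kept if well above background (on 50% or more of its spots) on all arrays of at least 1 genotype, which left 21076 of 39429 probes. Of all probes, 27234 were named through RefSeq accessions, and the brightest represented a gene. Differences, knock-in minus wild type, were fitted with limma 3.58.1 (lmFit and eBayes) in R 4.3.3 and adjusted by Benjamini-Hochberg over 12785 genes. The share of spots well above background was 45.5% to 58.4%, and the number of arrays limits the precision.

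The members and lists were chosen with earlier results of these data known. All members are named, and of each other list the up to 4 rises and 4 falls with the smallest p among genes past the test; the marker lists shown beside Gpx3 and Sod3 were picked after their values were seen. Promoter motifs were searched with a first pair, and a further motif was added after those matches and the Srxn1 promoter had been seen. Tested on simulated data for this comparison (12785 genes, 200 changed), the fit found 45% of the 2-fold changes and 95% of the 4-fold ones, and 7 of its 147 calls were false. The simulated arrays held no effect of slide or scan day. These shares therefore do not give the rate of false calls in the measured arrays. Normexp, an alternative, ran on median signals. Same-numbered arrays deviated from their group means with correlations of 0.17 and -0.22, so the numbers were not taken to pair them. Probe sequences were not used here.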

Additional observations from a re-analysis of the deposited data

How the results depend on the processing

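The number of antioxidant genes called was 8 in the reported fit, and stayed within 1.5 times with quantile normalization (7 higher, 4 lower), median scaling (5 and 3), the stricter filter (5 and 3) and the mean of a gene's probes (4 and 5). It was 5 with normexp (2 higher, 3 lower), 5 without a filter (3 and 2), 4 with slide as a random block, 16 with the scan day as a block, 25 with array weights, and 5 to 16 when single arrays were left out: 5 without knock-in array 1 or 2 or wild type array 1 or 2, and 16 without wild type array 3. Over all genes the 3312 calls (51.2% higher) became 1433 with normexp, 2002 without a filter, 620 with slide as a random block, 5566 with the scan day as a block, 8749 with array weights and 1538 to 5661 without single arrays; median scaling gave 1143 higher and 1655 lower. With the replicate block, whose numbers do not pair the arrays, 17 members and 5446 genes were called and the median difference of the antioxidant genes was 0.31, against 0.13; other settings left that median within the spread between arrays, at 0.00612 to 0.29 without single arrays. The 16 calls of the shared day became 18 after quantile normalization and 11 without a filter, alternatives chosen after seeing the data.

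Signs turned only in members that were not called. Keap1 turned to 0.059 with normexp, 0.099 with the scan day, 0.14 with the replicate block and 0.092 with array weights, and lay between -0.17 and 0.099 without single arrays. Mgst1 turned to 0.087 after quantile normalization, 0.20 with normexp, 0.13 with the scan day, 0.20 with the replicate block and 0.13 with array weights, and lay between -0.079 and 0.13 without single arrays. Prdx1 turned to -0.028 with median scaling and -0.0054 with slide as a random block, and lay between -0.18 and 0.20 without single arrays. Gstm1 turned to 0.17 after quantile normalization and 0.061 with normexp, Sod2 to 0.15 with normexp, Mgst3 to -0.23 with the mean of its probes, and Msrb2 to -0.11 with normexp and -0.00016 to 0.16 without single arrays. Of the 27 other named genes, 19 lost their call with slide as a random block, 15 with normexp, 13 without a filter, 9 with median scaling and 2 to 14 without single arrays (14 without knock-in array 2, 2 without wild type array 3), Gsta3 and Noxo1 in all 6 such fits; none changed sign. The cause was not tested.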
